A study of Mus musculus with 6 samples.

Results

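The genes described here encode the ligands and receptors of the Eph and ephrin, Slit and Robo, netrin, and semaphorin, neuropilin and plexin systems, which steer growing axons and also shape epithelia and vessels. The set held 47 genes chosen by name: 11 Eph receptors, 8 ephrins, 3 Slits, 2 Robos, 2 netrins, 3 netrin receptors, 9 semaphorins, 2 neuropilins and 7 plexins. A probe set, the group of array probes summarised into 1 value, was assigned to a gene when that gene was its single symbol in the platform annotation. Such probe sets were found for 46 of the 47 genes, 113 probe sets in all, and Ephb2 was not analysed here. Of these, 77 probe sets of 43 genes were bright enough to be tested, out of 22519 tested probe sets among the 45101 of the series, which covered 11592 genes.

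The study compared 3 kidney samples labelled Ret-deficient with 3 labelled wild-type. Both groups were whole embryonic kidneys of C57BL/6 mice at gestational day 12.5, labelled as biological replicates, and each sample was hybridised to 1 Affymetrix Mouse 430 2.0 array. The titles and genotype fields describe the kidneys as Ret-deficient, while the source field assigns the knockout to the pregnant female. How the allele was made, which litters were used and how many embryos were pooled is in no source used here. Ret-deficient and wild-type kidneys below therefore stand for samples, not for single organs. Ret is the receptor tyrosine kinase of the ureteric bud, which responds to Gdnf from the surrounding mesenchyme.

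Ephs are receptor tyrosine kinases whose ephrin ligands are themselves bound to the membrane of the neighbouring cell, so that a contact can signal in both directions. Slits are secreted proteins read by Robo receptors, netrins are laminin-related proteins read by Dcc and the Unc5 receptors, and class 3 semaphorins are secreted ligands that bind a neuropilin paired with a plexin. In the mouse kidney, Slit2 and Robo2 are known for limiting the number of ureteric buds by restricting the domain of Gdnf, and Sema3a for restraining branching of the ureteric bud.

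Values are the authors' MAS5 signals, linear intensities scaled to the same trimmed mean of 2500 on each array. Differences are Ret-deficient minus wild-type on log2(signal + 16), and this scale understates the change of dim genes. A probe set was tested when its mean signal over the 6 arrays reached 304.5, the median over all probe sets, and a gene was represented by its brightest tested probe set. A signal was called above background when it exceeded the brightest of 27 bacterial control probe sets on the same array, which read 97.2 to 186.9. Levels of different genes were not compared, since probe sets differ in how brightly they read.

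The brighter Ret probe set gave signals of 93.3, 479.8 and 334.1 in Ret-deficient replicates 1, 2 and 3, against 13315, 11042 and 10193 in wild-type replicates 1, 2 and 3. All Ret-deficient arrays lay far below all wild-type arrays, with a log2 difference of -5.43 (SE 0.54) and an adjusted p of 0.299 in limma. Which part of Ret the allele removes is not given, so the probe set checks the labels only by its level. A pair of arrays stood apart. In Ret-deficient replicate 1 the summed signal of 13 tested ureteric epithelium markers was 9493, against 70238 in replicate 2 and 57857 in replicate 3, and between 78128 and 90379 on the wild-type arrays, and Cdh1, Calb1, Cldn3 and Mal2 were not above background there. In wild-type replicate 1 the ratio of 3' to 5' control probe sets was 10.7 for beta-actin and 4.91 for Gapdh, against 3.88 to 5.21 and 1.86 to 2.31 on the other 5 arrays. The kidney label matched its defining markers, since 12 of 15 nephron progenitor genes were tested and read above background on all 6 arrays.

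No guidance gene passed the test. In limma, 0 of 43 genes had an adjusted p under 0.05, as did 0 of all 22519 tested probe sets (0%), and the lowest adjusted p among the genes' brightest probe sets was 0.866, for Epha1. At an unadjusted p under 0.05, 2 of the 43 genes (4.65%) were counted in either direction, against 642 of 11592 genes (5.54%). The guidance genes were 2 lower and 0 higher in Ret-deficient kidneys, and all genes were 294 lower and 348 higher. The 2 genes were Epha1 and Plxnb1. Over the alternative settings the unadjusted limma p of Epha1 ran from 0.00588 to 0.118 and that of Plxnb1 from 0.0311 to 0.148, so neither stayed under 0.05 in all of them. Counted by probe set, 5 of 77 (6.49%) had an unadjusted p under 0.05, against 5.36% of all tested probe sets. These belonged to Epha1, Epha3, Epha7, Efna3 and Plxnb1. Counted in either direction, each of these shares lies near the share over all genes or probe sets.

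The groups did not overlap on any array for 5 of the 43 genes. Efnb3 and Unc5c were higher in all Ret-deficient kidneys, 2 of 43 genes, where 6.03% of all genes were. Under quantile normalization the groups of both genes overlapped. Epha1, Sema3f and Plxnb1 were lower in all Ret-deficient kidneys, 3 of 43 genes, where 5.75% of all genes were. Together they made 11.6% of the guidance genes against 11.8% of all genes. The median log2 difference was 0.03 over the 43 genes and 0.003 over all genes. It was positive for 25 genes and negative for 18, and centring each array on its median changed this split to 33 and 10 while moving the median of all genes to 0.115. The differences ran from -0.70 for Epha1 to 0.78 for Efna3, so 0 of the 43 genes reached 2-fold, against 2.41% of all genes. The median standard error was 0.24 on the log2 scale, with 3 arrays a group. The adjusted test also missed far larger differences, since Ret at -5.43 had an adjusted p of 0.299 in limma. A count of 0 therefore says little about differences of the size found here.

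**Figure D1:**
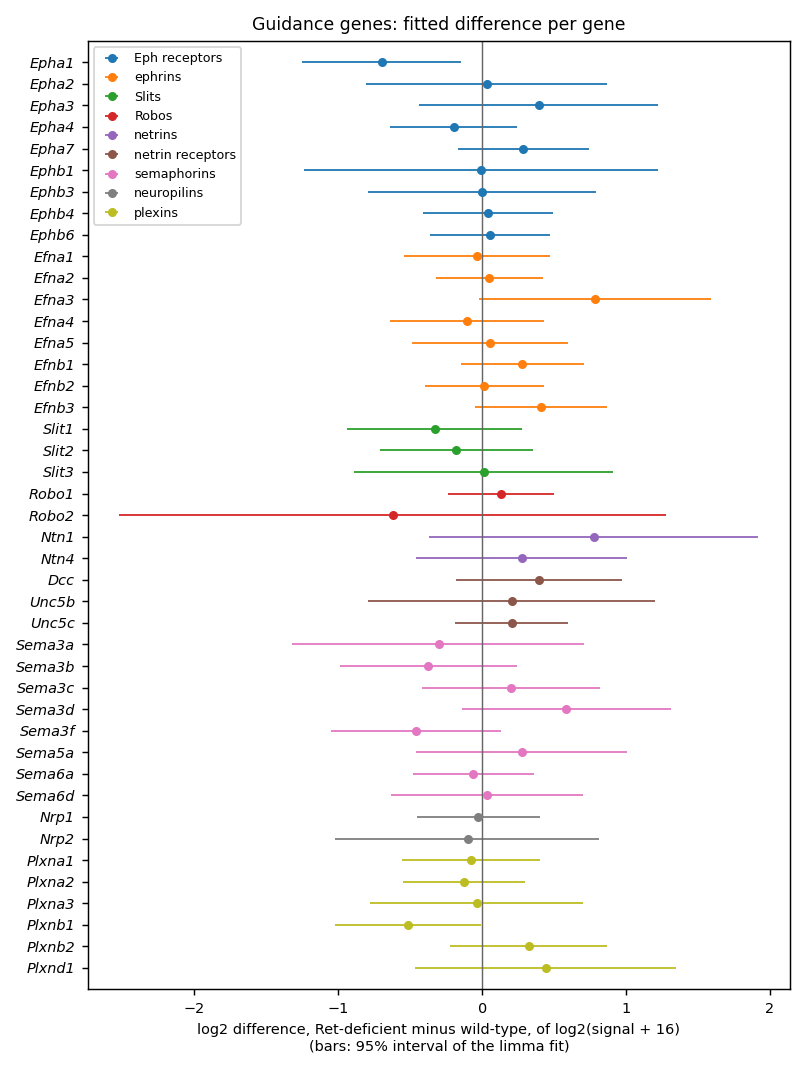
Fitted log2 difference, Ret-deficient minus wild-type, of each of the 43 tested guidance genes on log2(signal + 16), coloured by family, with the 95% interval of the limma fit over 3 arrays a group. The intervals of Epha1 and Plxnb1 lie below 0, those of the other 41 genes include 0, and Robo2 has the widest, -2.52 to 1.28.

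Of the ligands, 21 genes were tested and had a median log2 difference of 0.04. The 22 tested receptor genes had a median of 0.02. By family the median was 0.03 over 9 Eph receptors, 0.05 over 8 ephrins, -0.18 over 3 Slits, 0.53 over 2 netrins and 0.20 over 3 netrin receptors. The medians of 8 semaphorins at -0.01, 2 neuropilins at -0.06 and 6 plexins at -0.06 turned positive under median centring, to 0.10, 0.05 and 0.05, with all genes then at 0.115. In the 2 Robos the genes differed in sign.

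Since Epha1 and Plxnb1 were the genes with an unadjusted p under 0.05, their promoters are shown, from 250 bases before to 50 bases after the start of the gene. They are from RefSeq on the mouse build GRCm38.p6 and read 5′ to 3′ along the gene: Epha1 at chr6:42373219-42373518 on the minus strand, and Plxnb1 at chr9:109095186-109095485 on the plus strand. Capitals mark matches to CCGGAAG, the core of sites for ETS factors, searched on both strands.
Epha1: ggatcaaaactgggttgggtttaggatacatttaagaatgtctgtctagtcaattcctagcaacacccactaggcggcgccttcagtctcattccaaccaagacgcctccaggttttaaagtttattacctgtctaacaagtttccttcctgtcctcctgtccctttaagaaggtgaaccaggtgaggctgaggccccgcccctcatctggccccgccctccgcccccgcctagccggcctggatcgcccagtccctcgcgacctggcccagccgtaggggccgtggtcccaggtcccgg
Plxnb1: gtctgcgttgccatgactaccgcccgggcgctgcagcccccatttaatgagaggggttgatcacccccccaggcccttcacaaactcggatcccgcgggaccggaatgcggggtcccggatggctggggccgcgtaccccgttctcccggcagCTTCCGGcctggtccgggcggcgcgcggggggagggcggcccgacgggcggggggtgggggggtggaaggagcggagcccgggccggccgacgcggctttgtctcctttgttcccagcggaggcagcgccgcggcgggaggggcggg
Plxnb1 held 1 match, read on the opposite strand, and Epha1 held none. Neither window held TATAAA on either strand. The Epha1 window was 58% G and C with 14 CpG pairs, and the Plxnb1 window was 74.7% G and C with 36 CpG pairs. Promoters in the same table matched 38 of the guidance genes with 45 windows, of which 4.44% held CCGGAAG and 4.44% held TATAAA, against 8.86% and 13.6% of all 32851 promoters. The guidance windows had a median of 64.7% G and C and 22 CpG pairs, against 52.7% and 7 over all promoters. A match here describes letters in the window and nothing about binding.

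Among the Eph receptors, 9 of 11 were tested. Epha1 is a receptor for A-type ephrins. Its signals were 190.2, 238.5 and 323.5 in Ret-deficient replicates 1, 2 and 3, against 443.5, 347.0 and 440.2 in wild-type replicates 1, 2 and 3. Every Ret-deficient kidney read below every wild-type kidney, and the lowest was replicate 1. The log2 difference was -0.70 (SE 0.23), with an unadjusted p of 0.0201 and an adjusted p of 0.866 in limma. In whole kidneys, fewer cells of a type and less RNA per cell cannot be told apart. The 13 tested ureteric epithelium markers were also lower, with a median log2 difference of -1.14 and the lowest values in the same replicate 1, and their part in the Epha1 difference was not tested. Without Ret-deficient replicate 1 the difference was -0.53, and without both arrays that stood apart it was -0.47. A pair of dimmer Epha1 probe sets, below the brightness limit, were positive at 0.62 and 0.06 in the fit with no limit.

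Epha4 and Epha7 are Eph receptors known in the mouse from the mesenchyme where the nephric duct joins the cloaca. Epha4 read 13272, 15413 and 12433 in Ret-deficient kidneys, against 18629, 14311 and 14391 in wild-type kidneys. The groups overlapped, with wild-type replicate 1 the highest of the 6 arrays. The log2 difference of Epha4 was -0.20 (SE 0.18, adjusted p 0.953 in limma), and its 5 tested probe sets were all negative, between -0.27 and -0.06. Without wild-type replicate 1 the difference was -0.07.

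Epha7 read 6919, 6424 and 8092 in Ret-deficient kidneys, against 5771, 4970 and 6911 in wild-type kidneys. Replicate 3 was the highest array of each group, and the groups overlapped. Its log2 difference was 0.29 (SE 0.19, adjusted p 0.942 in limma), and 0.17 without wild-type replicate 2. A dimmer probe set of Epha7, chosen after its values were seen, read 1606.5, 1547 and 1677 in Ret-deficient kidneys and 882.7, 808.6 and 971.8 in wild-type kidneys. Here the groups were clear of each other and tight within themselves, with a log2 difference of 0.85 (SE 0.15), an unadjusted p of 0.00102 and an adjusted p of 0.78 in limma. The third tested probe set gave 0.38, and another below the brightness limit gave -0.24 with no limit. The probe sets of Epha7 therefore gave differences of unequal size, and the annotation does not say which transcripts each reads.

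Epha3, a receptor of mesenchyme and vessels, averaged 1228 ± 498 in Ret-deficient kidneys and 919.5 ± 313 in wild-type kidneys (SD, n = 3 each) by its brightest probe set, with a log2 difference of 0.39. Its second tested probe set, chosen after its values were seen, read 864.7, 1615 and 1763 in Ret-deficient kidneys and 901.9, 634.9 and 420.8 in wild-type kidneys. On both probe sets Ret-deficient replicate 3 was the highest array, and the second had a log2 difference of 1.097 (SE 0.37), an unadjusted p of 0.0223 and an adjusted p of 0.869 in limma. Macrophage markers were highest on the same array, where the summed signal of 9 genes was 70201. It was 37171 in replicate 1, 25810 in replicate 2, and between 20293 and 31501 on the wild-type arrays. The summed signal of 13 renal stroma genes was also highest there, at 194220, against 137340 to 176650 on the other arrays. Their median deviation from wild-type was higher in Ret-deficient replicate 1, at 0.65, than in replicate 3, at 0.49. The part of either list in the Epha3 values was not tested.

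The other 5 tested Eph receptors lay within 0.06 of 0 on the log2 scale. Epha2, an epithelial Eph receptor, averaged 306 ± 49.2 in Ret-deficient kidneys and 322 ± 175 in wild-type kidneys, the spread in wild-type kidneys coming from replicate 1. Ephb1 averaged 640.2 ± 370 in Ret-deficient kidneys, whose arrays ran from 226.7 to 941.3, and 561 ± 130.2 in wild-type kidneys. Ephb3 averaged 579 ± 226 in Ret-deficient kidneys and 564 ± 161 in wild-type kidneys. Ephb4, the receptor that marks venous endothelium and binds Efnb2, averaged 4085 ± 811 in Ret-deficient kidneys and 3919.5 ± 221 in wild-type kidneys. Ephb6, whose kinase domain lacks activity, averaged 817 ± 127 in Ret-deficient kidneys and 781 ± 40.3 in wild-type kidneys. The standard errors of these 5 genes ran from 0.17 for Ephb6 to 0.51 for Ephb1, so the 95% interval of Ephb1 reached from -1.24 to 1.22.

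Epha5 was measured only by probe sets below the brightness limit. The brightest on Ret-deficient arrays read 245.9, 276.5 and 164.1 there, against 64.3, 53.0 and 149.5 in wild-type kidneys. Another read 77.3, 56.8 and 115.7 in Ret-deficient kidneys, against 179.0, 120.0 and 184.3 in wild-type kidneys. These probe sets separated the groups in opposite directions close to background, so no direction can be given for Epha5.

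All 8 ephrins were tested, 6 of them with a positive difference. All 8 were positive under median centring, which moved the median of all genes to 0.115. The count was 4 without Ret-deficient replicate 1 and 4 without replicate 2. The B-type ephrins span the membrane, and all 3 had positive differences, with a median of 0.28. Efnb3 read 3443, 3706 and 4167 in Ret-deficient kidneys, against 3351.5, 2901 and 2328 in wild-type kidneys. The lowest Ret-deficient array lay just above the highest wild-type array. Efnb3 had a log2 difference of 0.41 (SE 0.19), an unadjusted p of 0.0737 and an adjusted p of 0.932 in limma. Efnb1 averaged 7152 ± 454 in Ret-deficient kidneys and 5950.4 ± 969 in wild-type kidneys, and its 3 tested probe sets gave 0.17 to 0.31.

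Efnb2 is the B-type ephrin of arterial endothelium and is known for duct and urethral development in the mouse. It read 15367, 17067 and 12455 in Ret-deficient kidneys, against 14977, 14444 and 14748 in wild-type kidneys. The wild-type arrays sat within the range of the Ret-deficient arrays, and the log2 difference was 0.01 (SE 0.17, 95% interval -0.40 to 0.43). Its other tested probe sets gave -0.01 and 0.99, the second from a dim probe set whose wild-type replicate 1 read 84.8, not above background. Leaving out 1 array put the Efnb2 difference between -0.09 and 0.14, on either side of 0.

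A-type ephrins are tethered to the membrane by a lipid anchor. Efna3, described after its values were seen, had the highest difference of the 43 genes. It read 2643, 1953.5 and 3935 in Ret-deficient kidneys, against 1103, 1697 and 2096 in wild-type kidneys. The groups overlapped at Ret-deficient replicate 2, and Ret-deficient replicate 3 was the highest array. Its log2 difference was 0.78 (SE 0.34), with an unadjusted p of 0.0544 and an adjusted p of 0.921 in limma. The second Efna3 probe set read 1859, 1903 and 2971 in Ret-deficient kidneys and 1644, 1316 and 1237.5 in wild-type kidneys, without overlap, and gave 0.65 (SE 0.24, unadjusted p 0.0308, adjusted p 0.913 in limma). Both probe sets had the same sign and the same highest array, on which the summed signals of macrophage and renal stroma markers were also highest. The part of either list in the Efna3 difference was not tested.

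The other A-type ephrins differed little between the groups. Efna1 averaged 1448 ± 300.1 in Ret-deficient kidneys and 1469.5 ± 181 in wild-type kidneys. Efna2 averaged 15424 ± 1533 in Ret-deficient kidneys and 14863 ± 688 in wild-type kidneys. Their log2 differences were -0.04 and 0.05. Efna4 averaged 844 ± 58.1 in Ret-deficient kidneys and 928 ± 241 in wild-type kidneys. Efna5 averaged 6797 ± 1311 in Ret-deficient kidneys and 6535 ± 1203 in wild-type kidneys. These A-type ephrins had log2 differences of -0.10 and 0.05, all within their standard errors of 0.16 to 0.23.

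**Figure D2:**
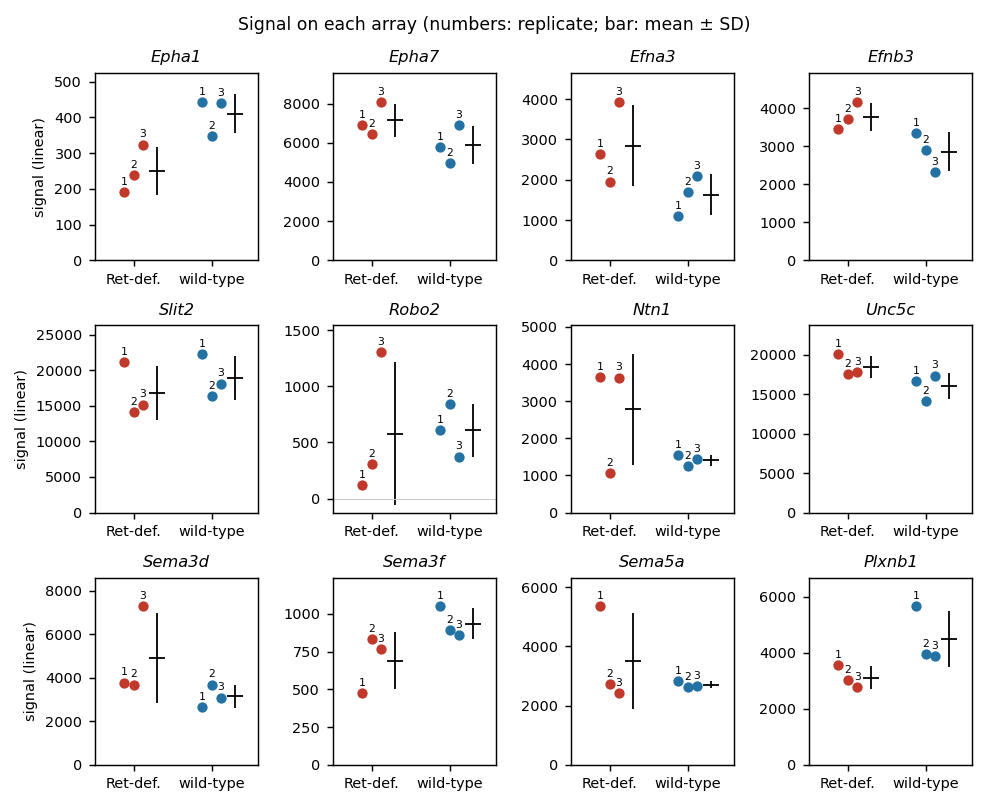
Linear signal of 12 guidance genes on each array, Ret-deficient at left and wild-type at right, with replicate numbers above the points and mean ± SD beside them. Epha1, Efnb3, Unc5c, Sema3f and Plxnb1 have groups that do not overlap, while Ret-deficient replicate 1 stands alone for Sema5a at 5358 and replicate 3 for Sema3d at 7281.

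Slit2 is the Slit ligand needed for a single ureteric bud in the mouse. It read 21181, 14119 and 15159 in Ret-deficient kidneys, against 22288, 16318 and 18112 in wild-type kidneys. Replicate 1 was the highest array of each group and the groups overlapped. Slit2 had a log2 difference of -0.18 (SE 0.22, 95% interval -0.71 to 0.35, adjusted p 0.962 in limma). Its dimmer probe sets also gave negative values, -0.51 and -0.10. Without wild-type replicate 1 the Slit2 difference was -0.055, and without Ret-deficient replicate 1 it was -0.36.

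Slit1, best known from the nervous system, averaged 387 ± 30.03 in Ret-deficient kidneys and 506 ± 150.5 in wild-type kidneys, with a log2 difference of -0.33 (SE 0.26). Slit3, a Slit of mesenchyme and muscle, was described after its values were seen. It read 2501, 1164 and 869.9 in Ret-deficient kidneys, against 1493, 1287 and 1292 in wild-type kidneys. Ret-deficient replicate 1 was above and replicates 2 and 3 were below all wild-type arrays. The log2 difference of 0.01 (SE 0.38) thus stands for samples that differed among themselves by over 1 log2 unit.

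Robo2 is the receptor through which Slit2 acts on the nephric duct and mesenchyme. It read 119.4, 307.1 and 1307 in Ret-deficient kidneys, against 607.2, 843.9 and 373.8 in wild-type kidneys. The Ret-deficient arrays spanned both sides of the wild-type range, and replicate 1 was not above background. Robo2 had a log2 difference of -0.62 (SE 0.80, 95% interval -2.52 to 1.28), and 0.14 without Ret-deficient replicate 1, so its direction rests on that array. Its SD of 1.66 on the log2 scale within Ret-deficient kidneys was the widest of the 43 genes, against 0.57 within wild-type kidneys.

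Robo1, the other Slit receptor, averaged 18513 ± 1796 in Ret-deficient kidneys and 16888 ± 468 in wild-type kidneys. Its brightest probe set gave a log2 difference of 0.13 (SE 0.15), and its second tested probe set gave -0.53 (SE 0.34). The second probe set read 290.5, 181.5 and 416.9 in Ret-deficient kidneys, against 372.6, 576.6 and 329.8 in wild-type kidneys. The groups overlapped there, and the probe sets of Robo1 disagreed in sign.

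Netrin 1 is the secreted ligand that attracts axons through Dcc and repels them through the Unc5 receptors. Ntn1 read 3649, 1062 and 3636 in Ret-deficient kidneys, against 1540, 1242 and 1445 in wild-type kidneys. Ret-deficient replicates 1 and 3 read above all wild-type arrays and replicate 2 read below them. Ntn1 had a log2 difference of 0.78 (SE 0.48, adjusted p 0.938 in limma). Without Ret-deficient replicate 2 it was 1.37, and without replicate 1 or 3 it was 0.48 and 0.49. The SD of Ntn1 on the log2 scale was 1.02 within Ret-deficient kidneys and 0.16 within wild-type kidneys. Several marker lists were likewise higher in Ret-deficient replicates 1 and 3 than in replicate 2. The median deviation from wild-type in Ret-deficient kidneys 1, 2 and 3 was 0.65, 0.01 and 0.49 for 13 renal stroma genes, 0.48, -0.11 and 1.45 for 9 macrophage genes, and 0.98, -0.64 and 1.04 for 4 skeletal muscle genes. The skeletal muscle genes tested were Tnnt1, Tnnt2, Actc1 and Des, 4 of 9 listed. Myod1, Myog, Myf5, Myh3 and Chrna1 were not tested, so the values cover only part of that list. The other marker lists did not follow this order. Erythroid genes had -0.165, 1.48 and -0.255 in Ret-deficient kidneys 1, 2 and 3. Ureteric epithelium, endothelium, and neural crest and neuron genes were also highest in replicate 2 of these kidneys, and nephron progenitor genes were lowest in replicate 1. The part of any list in the Ntn1 values was not tested.

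Netrin 4 is a netrin of basement membranes that binds laminin. Ntn4 read 551.6, 528.2 and 281.3 in Ret-deficient kidneys, against 339.2, 290.3 and 461.7 in wild-type kidneys. Ret-deficient replicates 1 and 2 were above and replicate 3 was below all wild-type arrays. Ntn4 had a log2 difference of 0.27 (SE 0.31), and between 0.108 and 0.575 when 1 array was left out.

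The 3 netrin receptors all had positive differences, a count that was 2 of 3 without wild-type replicate 2. Unc5c, a receptor of the repulsive kind, read 20106, 17528 and 17793 in Ret-deficient kidneys, against 16673, 14136 and 17353 in wild-type kidneys. The groups did not overlap, though the lowest Ret-deficient array lay close to the highest wild-type array. Unc5c had a log2 difference of 0.205 (SE 0.16, unadjusted p 0.252, adjusted p 0.95 in limma), and 0.116 without wild-type replicate 2. Its second probe set gave 0.275. Dcc averaged 861 ± 179 in Ret-deficient kidneys and 651 ± 134 in wild-type kidneys, with a log2 difference of 0.39 (SE 0.24). Unc5b, a netrin receptor of endothelium, averaged 698 ± 77.5 in Ret-deficient kidneys and 674 ± 378 in wild-type kidneys, with a log2 difference of 0.20 (SE 0.415).

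Of the 9 semaphorins, 8 were tested, 4 with positive and 4 with negative differences. The split was 5 and 3 under median centring, which moved the median of all genes to 0.115. Sema3f is a secreted ligand of Nrp2. It read 472.9, 829.9 and 766.9 in Ret-deficient kidneys, against 1050.4, 892.7 and 857.2 in wild-type kidneys. Every Ret-deficient kidney read below every wild-type kidney, with replicate 1 the lowest by far. Sema3f had a log2 difference of -0.46 (SE 0.25, unadjusted p 0.105, adjusted p 0.938 in limma), and -0.22 without Ret-deficient replicate 1, the array with the lowest ureteric epithelium markers. Its other tested probe sets gave -0.28 and -0.29, both with overlapping groups. Ret-deficient replicate 1 was the lowest array on the first, at 324.8, but the highest on the second, at 530.7. The part of the ureteric epithelium markers in the Sema3f difference was not tested.

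Sema3a, a secreted ligand of Nrp1, read 885.9, 651.7 and 763.6 in Ret-deficient kidneys, against 1900.1, 714.9 and 613.5 in wild-type kidneys. The groups overlapped and wild-type replicate 1 stood above the other 5 arrays. Sema3a had a log2 difference of -0.30 (SE 0.425), and 0.20 without wild-type replicate 1, so its direction rests on that array. On that array the ratio of 3' to 5' control probe sets was also highest, and its part in the Sema3a value was not tested.

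Sema3c, a secreted semaphorin known from the outflow tract of the mouse heart, read 7833, 8981.5 and 12353 in Ret-deficient kidneys, against 6250, 9283.5 and 9914 in wild-type kidneys. Replicate 1 was the lowest and replicate 3 the highest array in each group, and the groups overlapped. Sema3c had a log2 difference of 0.20 (SE 0.26) and its second tested probe set gave 0.21. Leaving out wild-type replicate 1 gave -0.008, so its direction rests on that array too.

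Sema3d, a secreted relative of Sema3c, was described after its values were seen. It read 3773, 3679 and 7281 in Ret-deficient kidneys, against 2651, 3680 and 3082 in wild-type kidneys. Ret-deficient replicate 3 was far above the other 5 arrays, and the log2 difference was 0.58 (SE 0.30, unadjusted p 0.0995, adjusted p 0.938 in limma). The summed signals of macrophage and renal stroma markers were also highest on this array, and the part of either list in the Sema3d value was not tested. The second Sema3d probe set gave 0.20.

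Sema5a, a membrane-bound semaphorin with thrombospondin repeats, was also described after its values were seen. It read 5358, 2716 and 2420 in Ret-deficient kidneys, against 2829.5, 2631 and 2662 in wild-type kidneys. Ret-deficient replicate 1 read far above the other 5 arrays, which lay close together, and the log2 difference was 0.275 (SE 0.31). The other tested Sema5a probe sets, at 0.24 and 0.38, were likewise highest in Ret-deficient replicate 1, with 4843 and 1087 there.

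Sema3b averaged 624 ± 56.2 in Ret-deficient kidneys and 845 ± 301 in wild-type kidneys, with a log2 difference of -0.38 (SE 0.26), and replicate 1 was the highest wild-type array at 1192. Sema6a, a membrane-bound ligand of Plxna2 and Plxna4, averaged 2253 ± 301 in Ret-deficient kidneys and 2345 ± 224 in wild-type kidneys. Sema6d, a ligand of Plxna1, averaged 5069 ± 997 in Ret-deficient kidneys and 5053 ± 1676 in wild-type kidneys. The log2 differences of Sema6a and Sema6d were -0.06 and 0.04, within their standard errors of 0.18 and 0.28. A Sema6d probe set below the brightness limit, chosen after its values were seen, read 131.5, 95.2 and 96.5 in Ret-deficient kidneys, against 365.3, 261.4 and 249.1 in wild-type kidneys. Those groups did not overlap, but only replicate 1 of the Ret-deficient arrays was above background, and the gene's bright probe set showed no such separation. Sema3e, the ligand of Plxnd1, was read only by 4 probe sets below the brightness limit, and 0 to 2 of the 3 Ret-deficient arrays and 0 to 1 of the 3 wild-type arrays were above background for each.

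Neuropilins bind class 3 semaphorins and also forms of the endothelial growth factor Vegfa. Nrp1 read 34267, 29099 and 27431 in Ret-deficient kidneys, against 35106.5, 27593 and 29855 in wild-type kidneys. The groups overlapped almost fully, and replicate 1 was the highest array of each. Nrp1 had a log2 difference of -0.03 (SE 0.18, 95% interval -0.45 to 0.40), which became 0.085 under median centring. Its other 3 tested probe sets gave -0.16, -0.11 and 0.04, in both directions. Nrp2 averaged 4721 ± 1426 in Ret-deficient kidneys and 5262 ± 2494 in wild-type kidneys, and its 3 tested probe sets gave -0.56 to -0.10. Wild-type replicate 1 was the highest array on all 3 of them, with 8077 on the brightest.

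Plexins are the receptors that carry the semaphorin signal into the cell, and 6 of 7 were tested. Plxnb1 is the receptor of Sema4d and is known from branching of the mouse ureteric bud. It read 3551, 3037 and 2762.5 in Ret-deficient kidneys, against 5670, 3958 and 3885 in wild-type kidneys. Every Ret-deficient kidney read below every wild-type kidney, and wild-type replicate 1 was well above the rest. Plxnb1 had a log2 difference of -0.51 (SE 0.21), with an unadjusted p of 0.0472 and an adjusted p of 0.921 in limma, and -0.34 without wild-type replicate 1. Its second tested probe set read 1335, 1636 and 959.1 in Ret-deficient kidneys, against 1848.5, 1390 and 1801.5 in wild-type kidneys. Those groups overlapped, with a log2 difference of -0.38 (SE 0.24). The ureteric epithelium markers were lower as well. Among the Ret-deficient arrays, however, replicate 1 had the lowest markers and the highest Plxnb1 signal on the brightest probe set. On wild-type replicate 1 the ratio of 3' to 5' control probe sets was also highest. The part of the markers or of this ratio in the Plxnb1 difference was not tested.

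Plxnd1 is the endothelial receptor of Sema3e. It read 1660, 1739.5 and 934.4 in Ret-deficient kidneys, against 1496.5, 632.8 and 1120 in wild-type kidneys. The groups overlapped, and both spread widely. Plxnd1 had a log2 difference of 0.44 (SE 0.38). Leaving out 1 array put it between 0.10 and 0.73, the low end without wild-type replicate 2, its lowest array. Endothelial markers were tested for 14 of 14 genes, with a median log2 difference of -0.06. Their summed signal was 40209 to 50759 in Ret-deficient kidneys and 40169 to 67550 in wild-type kidneys, lowest in replicate 3 and replicate 2 of the groups, and their part in the Plxnd1 values was not tested.

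Plxnb2 is a plexin of progenitors and epithelia. It was described after its values were seen and read 10303, 7162 and 6528 in Ret-deficient kidneys, against 7401, 5934 and 5575 in wild-type kidneys. Replicate 1 was the highest array of each group, and the log2 difference was 0.325 (SE 0.23). The A-type plexins pair with neuropilins. Plxna1 averaged 6842 ± 1264 in Ret-deficient kidneys and 7176 ± 785 in wild-type kidneys. Plxna2 averaged 9817 ± 1199 in Ret-deficient kidneys and 10686 ± 1256 in wild-type kidneys. Plxna3 averaged 1007 ± 386 in Ret-deficient kidneys and 991 ± 166 in wild-type kidneys. Their log2 differences were -0.08, -0.12 and -0.04, each within its standard error of 0.20, 0.18 and 0.31. Plxna4 was read only by 2 probe sets below the brightness limit, the brighter at 320.4, 274.4 and 172.3 in Ret-deficient kidneys and 236.0, 197.5 and 223.8 in wild-type kidneys.

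**Figure D3:**
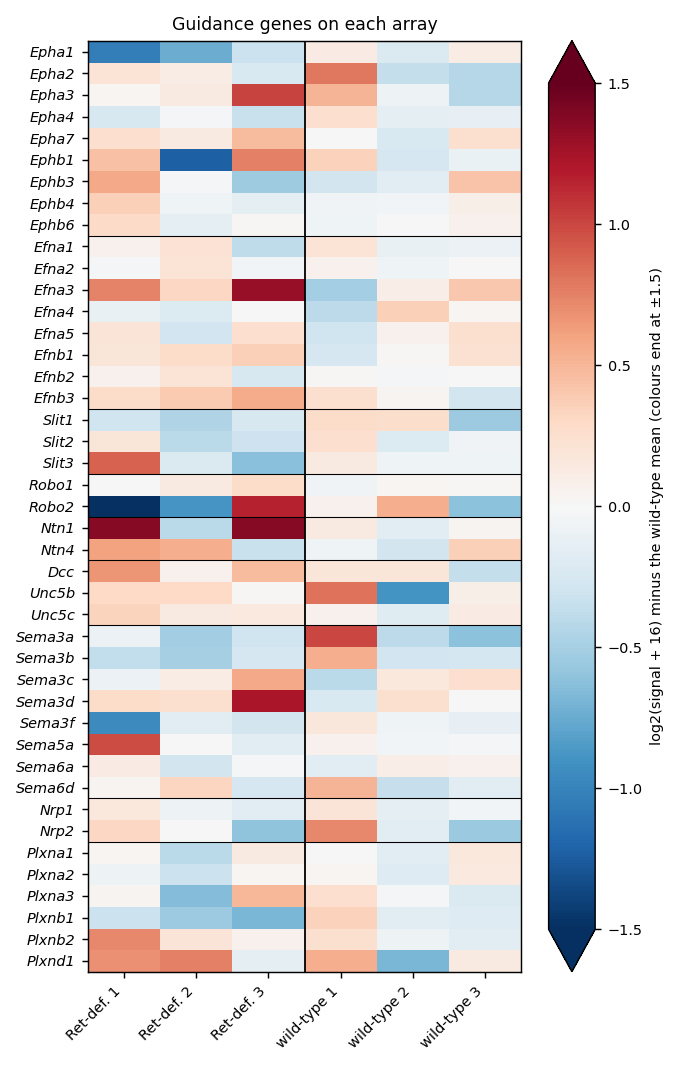
Each of the 43 tested guidance genes on each array as log2(signal + 16) minus the wild-type mean, in colour from below (blue) to above (red), with Ret-deficient arrays at left, wild-type arrays at right and lines between families. Ret-deficient replicate 1 holds 18 genes above the wild-type range and replicate 2 holds 9, and Robo2 and Ntn1 change colour between the 3 Ret-deficient arrays.

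The Ret-deficient kidneys differed from each other in how the guidance genes lay. In replicate 1, 18 of the 43 genes (41.9%) were above the wild-type range and 6 (14%) below it, where all genes had 29.1% above and 28.2% below. In replicate 2 the counts were 9 above (20.9%) and 15 below (34.9%), against 28.2% and 27.9% of all genes. In replicate 3 they were 15 above (34.9%) and 14 below (32.6%), against 27.9% and 25.3% of all genes. Replicate 1 thus leaned upward and replicate 2 downward, and the median deviation of the 43 genes from wild-type was 0.18, -0.02 and -0.03 in Ret-deficient kidneys 1, 2 and 3. In wild-type replicates 1, 2 and 3 the same median was 0.13, -0.08 and -0.01, so the wild-type arrays covered most of that spread.

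Within Ret-deficient kidneys the median SD of the 43 genes on the log2 scale was 0.285, and within wild-type kidneys 0.24 (all genes 0.24 and 0.22). The SD was larger in Ret-deficient kidneys for 25 of 43 genes (58.1%), against 55.6% of all genes. Robo2, Ephb1 and Ntn1 had an SD over 1 in Ret-deficient kidneys, of 1.66, 1.06 and 1.02, against 0.57, 0.31 and 0.16 in wild-type kidneys. Wild-type replicate 1 held the highest value for 13 of the 43 genes (30.2%), against 24.4% of all genes, and Ret-deficient replicate 3 did for 12 (27.9%), against 19.1%.

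**Figure D4:**
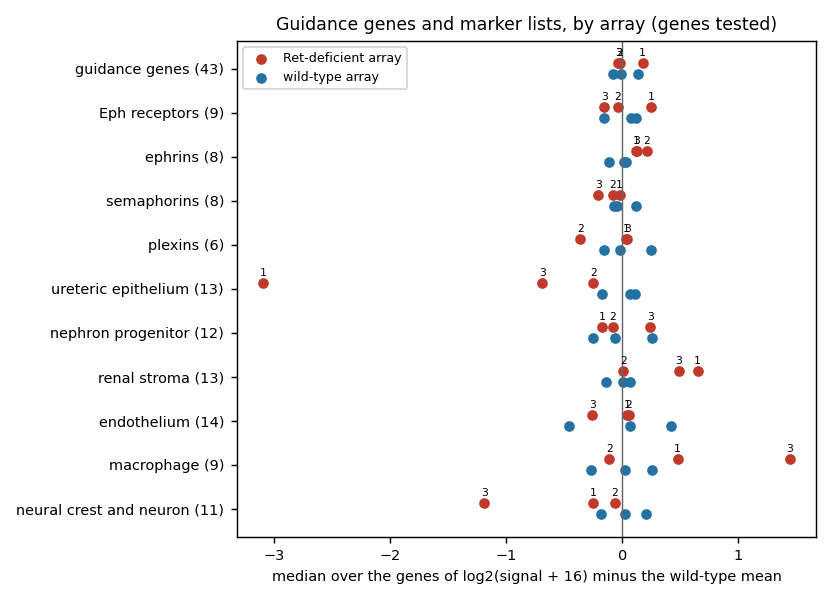
Median over the genes of guidance families and marker lists of log2(signal + 16) minus the wild-type mean, 1 point per array, Ret-deficient (red, numbered) above wild-type (blue), with the number of genes tested in brackets. The guidance genes lie between -0.08 and 0.18 on all 6 arrays, while the ureteric epithelium markers reach -3.09 in Ret-deficient replicate 1 and the macrophage markers 1.45 in replicate 3.

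All 13 tested ureteric epithelium genes had negative differences, with a median of -1.14. Of them 3 (23.1%) had an unadjusted p under 0.05 in limma, against 5.54% of all genes. Without Ret-deficient replicate 1 the median was -0.61, with 11 negative and 2 positive. The 9 macrophage genes were all positive, with a median of 0.595 and 1 such p, but without Ret-deficient replicate 3 the median was 0.136, with 7 positive and 2 negative. Of 13 renal stroma genes 9 had positive and 4 had negative differences, with a median of 0.41. An unadjusted p under 0.05 was found for 4 of the 13 (30.8%), all higher. Without both arrays that stood apart it was found for 1 (7.69%), against 5.53% of all genes. Neural crest and neuron genes had a median of -0.70 over 11, with 2 such p values. That median was -0.04 without Ret-deficient replicate 3 and -0.065 without wild-type replicate 3, so its size rests on these arrays. Nephron progenitor genes had a median of 0.00 over 12, with 1 such p, that of Gdnf. All Ret-deficient arrays read below all wild-type arrays for Gdnf, with a log2 difference of -0.97 (SE 0.21, unadjusted p 0.00262, adjusted p 0.836 in limma). None of these genes passed the adjusted threshold, and their part in the differences of single guidance genes was not tested.

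For 20 guidance genes more than 1 probe set was tested. The differences of their probe sets had the same sign in 15 of the 20 genes (75%), against 55.4% of 5095 such genes over the array, and the median spread between probe sets of a gene was 0.21 on the log2 scale, against 0.26. The signs disagreed in Efnb2, Robo1, Sema6a, Nrp1 and Plxna2. In Sema6a, Nrp1 and Plxna2 all values lay between -0.16 and 0.11. The probe sets of Efnb2 and Epha3 lay farthest apart, by 1.0 and 0.7.

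**Figure D5:**
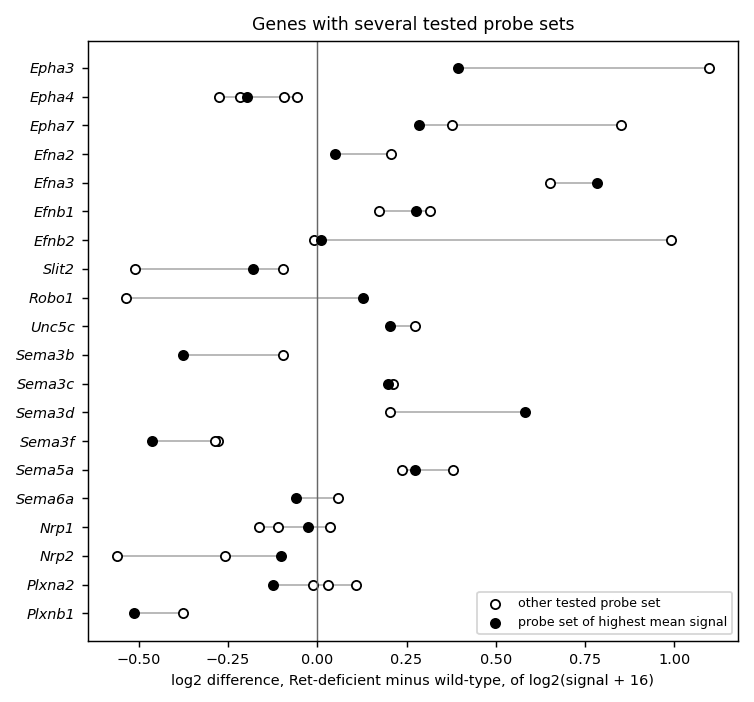
Log2 difference, Ret-deficient minus wild-type, of each tested probe set of the 20 guidance genes with more than 1, the brightest filled and the others open, joined by a line per gene. The 5 Epha4 probe sets lie between -0.27 and -0.06, while those of Efnb2 spread from -0.01 to 0.99.

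Guidance genes outside the 47 were taken from a further list of 32, of which 20 were tested. None passed the adjusted threshold in limma, and 1 (5%) had an unadjusted p under 0.05, against 5.54% of all genes. This was Sema4f, a membrane-bound class 4 semaphorin, which read 890.0, 1039 and 632.5 in Ret-deficient kidneys, against 1088, 1529 and 1207 in wild-type kidneys. Its groups did not overlap, and its log2 difference was -0.58 (SE 0.24, unadjusted p 0.0468, adjusted p 0.921). Sema4d, the ligand of Plxnb1, read 3089.5, 3946 and 3363 in Ret-deficient kidneys, against 3712, 5453 and 6363.5 in wild-type kidneys. The groups overlapped at Ret-deficient replicate 2 alone, with a log2 difference of -0.55 (SE 0.24, unadjusted p 0.058, adjusted p 0.924 in limma). The ligand and receptor thus both had negative differences, neither past the threshold. Their arrays did not follow the same order, since wild-type replicate 1 was the highest array for Plxnb1 and the lowest wild-type array for Sema4d. Sema7a, a lipid-anchored semaphorin, had a log2 difference of 0.53 (SE 0.29), and the median over the 20 genes was 0.00.

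Signal transducers that act below these receptors were taken from a list of 36, of which 30 were tested. None passed the adjusted threshold in limma, and 4 (13.3%) had an unadjusted p under 0.05, against 5.54% of all genes. That count was 0 with no brightness limit (0%, against 2.93% of all genes) and 1 under median centring (3.33%, against 4.77%). It was 1 to 3 when 1 array was left out (3.33% to 10%, against 3.72% to 8.26%). Fes, a kinase that acts below plexin A receptors, read 665.4, 712.7 and 752.1 in Ret-deficient kidneys, against 588.5, 425.4 and 435.4 in wild-type kidneys, with a log2 difference of 0.55 (SE 0.18). Dpysl4, of the collapsin response mediator family of semaphorin signalling, had a difference of 0.51 (SE 0.18), and its groups did not overlap. Dpysl5 of the same family had -0.83 (SE 0.31), also with no overlap. The members of the collapsin response family thus differed in sign. Vav3, an exchange factor below Eph receptors named after its values were seen, had -0.74 (SE 0.31) with overlapping groups. The lowest adjusted p in this list was 0.866, and its median log2 difference was -0.03.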

How the data were processed

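Gene expression was measured in 3 Ret-deficient and 3 wild-type samples of whole kidneys, with groups taken from the genotype in the labels. The authors deposited linear intensities made with MAS5, as the submitters' processing notes name it, and its version and scaling target are in no source used here. A commercial amplification kit is named in the series' design text, and standard Affymetrix labelling in the labels' protocol.

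Values were used as log2(signal + 16). The medians of the arrays differed by 0.42 on this scale, under the limit of 0.5 set for centring, so no further normalization was applied. Left out were 64 control probe sets, and 22518 others lay below the brightness limit. Symbols came from the platform annotation, updated by gene ID with RefSeq names for 99.42% of the 34958 probe sets with 1 symbol. The 932 probe sets with several symbols and the 9211 with none were not named. The test was limma (version 3.58.1, in R 4.3.3 with data.table in version 1.17.8), two-sided and with no covariates, checked on simulated data. Benjamini-Hochberg adjustment covered every tested probe set, and the threshold was 0.05. An exact permutation test of 3 against 3 arrays cannot go below 0.1. The number of arrays limits the precision.

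Signals on every array were given for genes whose groups do not overlap, genes with an unadjusted p under 0.05, and Slit2, Robo2, Epha4, Epha7, Efnb2, Ntn1, Ntn4, Sema3a, Sema3c, Nrp1 and Plxnd1. Of the further lists, at most 3 genes by smallest p were named, and others where stated. The genes and lists were chosen with earlier results of these data known. The marker lists were ureteric epithelium, nephron progenitor, renal stroma, endothelium, neural crest and neuron, macrophage, erythroid and skeletal muscle. The alternatives tried were pseudocounts of 1 and 64, no brightness limit or the brightest 30 percent, an intensity trend, array weights, quantile normalization, median centring, the replicate block, averaging the probe sets of a gene, an adjusted p of 0.1 and leaving out each array. Leaving out both arrays that stood apart was chosen after seeing the data.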

Additional observations from a re-analysis of the deposited data

How the results depend on the processing

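The count of 0 guidance genes past the adjusted threshold held in all alternatives run, while among all tested probe sets median centring gave 2, the intensity trend 1, array quality weights 2 and leaving out 1 array 0 to 1, all of them Ret or Calcr. Guidance genes at an unadjusted p under 0.05 numbered 4 under median centring (9.3%, against 4.77% of all genes) and 1 with no brightness limit (2.33%, against 2.93%). They numbered 1 without both arrays that stood apart (2.33%, against 5.53%), and 1 to 2 when 1 array was left out (2.33% to 4.65%, against 3.72% to 8.26%). The unadjusted p of Plxnb1 was 0.148 under median centring, 0.0896 with no limit, 0.0514 under quantile normalization and 0.0671 with array weights, and that of Epha1 was 0.117 with the intensity trend. Guidance genes whose groups do not overlap numbered 3 of 24 among the brightest 30 percent (12.5%, against 11.2% of all genes). They numbered 4 under quantile normalization (9.3%, against 12.1%) and 8 after averaging the probe sets of a gene (18.6%, against 12.7%). When 1 array was left out they numbered 7 to 12 (16.3% to 27.9%, against 17.1% to 28.9%), and without both arrays 15 (34.9%, against 37.4%). The median log2 difference of the guidance genes was -0.06 to 0.10 when 1 array was left out, below 0 without Ret-deficient replicate 1 or wild-type replicate 2. Directions turned for Nrp1, to 0.085 under median centring and 0.099 with array quality weights, for Sema3a, to 0.05 with array weights, and for Sema3c, to -0.01 with array weights. With 1 array left out, Efnb2 ran from -0.09 to 0.14, Robo2 from -1.504 to 0.14, Sema3a from -0.61 to 0.20, Sema3c from -0.008 to 0.34 and Nrp1 from -0.12 to 0.07. Without both arrays that stood apart Efnb2 was -0.002, Robo2 0.175 and Sema3a 0.089. The cause of these turns was not tested. With the replicate block, 3 guidance genes (6.98%) had an unadjusted p under 0.05, against 5.22% of all genes, and 0 passed the adjusted threshold. Under the block the count was 1 for signal transducers, 1 for neural crest and neuron, 3 for macrophage, 2 for endothelium, 4 for ureteric epithelium and 5 for renal stroma. Deviations from the group means correlated at 0.04, -0.04 and -0.11 between arrays numbered 1, 2 and 3, within the -0.20 to 0.22 of arrays with different numbers. With 3 arrays a group, these values cannot show whether samples of the same number shared a litter or batch. Precision is limited by 3 arrays a group, by probe sets near the bacterial controls, such as those of Epha5 and Sema3e, and by embryos whose litters and number per sample are unknown.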

Other observations

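Erythroid genes had a median log2 difference of 0.10 over 6 tested genes, 4 positive and 2 negative, with 0 at an unadjusted p under 0.05 in limma. Skeletal muscle genes had a median of 0.36 over 4 tested genes, all 4 of them at or above 0, with 0 at an unadjusted p under 0.05. Of the lists as given, 6 of 10 erythroid and 4 of 9 skeletal muscle genes were tested.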
